A study of Mus musculus with 16 samples.

Results

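The genes described here are those that encode potassium channels: protein-coding mouse genes whose symbol begins with Kcn, with Kcne2 and Kcnj13 set aside. This rule gave 92 genes, out of 55266 genes to which the transcripts in the data could be matched. Their 395 transcripts were summed per gene for levels and were kept apart for isoforms. The 16 RNA libraries formed 4 groups of 4, 1 for each tissue and genotype: frontal cortex or cerebellum, from adult animals without Upf3b (Upf3b-KO) or from their littermates with it (Ctrl). Upf3b lies on the X chromosome, and its protein links UPF2 to the exon junction complex in nonsense-mediated RNA decay (NMD), by which cells remove, among others, messenger RNAs with a stop codon upstream of an exon junction. The study describes these mice as Upf3b-null, and the libraries show neither the protein nor single cells. No treatment was given, and an age in weeks and a sex for each library were not given in the sources used here. Upf3b itself measured 14.2 to 15.7 CPM (counts of reads scaled to a common library total) in Ctrl frontal cortex against 0.229 to 0.857 without the gene. The cerebellar values were 20.9 to 23.6 CPM in Ctrl and 0.617 to 0.965 in Upf3b-KO libraries 2 to 4.

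Depth was 27660078 to 35238677 counts in 15 libraries, where 3 counts correspond to 0.0851 to 0.108 CPM. The remaining one, Upf3b-KO cerebellum library 1, held 64981 counts, so that 3 counts stand for 46.2 CPM, and it was left out of every value below unless it is named. The tissues carried their markers: the summed level of 11 genes of cortical projection neurons was 1840 to 1904 CPM in Ctrl frontal cortex and 626 to 650 in Ctrl cerebellum, and that of 9 granule cell genes was 202 to 209 and 4432 to 4474. Replicates were close to each other. Over channel genes averaging 10 CPM or more, the median coefficient of variation within a group was 2.82% to 3.51%. The p-values below measure only the spread between these libraries, which may be partly technical.

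Potassium channels let potassium ions leave or enter a cell along their gradient, and in neurons they set the resting potential, end the action potential and shape firing. Voltage-gated (Kv), calcium-activated and inward rectifier subunits each give a single pore loop to the channel, and two-pore-domain subunits, which carry the background leak, give a pair. Silent Kv subunits form no channel alone and alter Kv2 channels when they join them. Auxiliary subunits, such as Kvbeta (Kcnab) and KChIP (Kcnip) proteins, change gating and traffic without lining the pore.

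The part of the coding sequence that these subunits share is the selectivity filter, the short loop that strips water from potassium. It was looked for as 5 codons in frame, the first ACN, TCN or AGN and the rest NTN, GGN, TNN and GGN, in 1 coding sequence per gene (the annotated canonical transcript, sense strand only). It was found in 74 of 76 pore-forming and silent subunits and in 0 of 16 auxiliary members, against 2.15% of 21593 protein-coding genes. Of 14 two-pore-domain members, 10 held it at least 2 times in the chain. Kcnk1 and Kcnk7 held no match, which says only that these letters are not there. Windows of 33 bases are shown for members that the results below turn on, with the 15 bases of the filter in capitals (GRCm39, coding strand). Kcnc2 lies at chr10:112292125-112292157, Kcng4 at chr8:120352640-120352672, Kcnh4 at chr11:100641110-100641142 and Kcnh5 at chr12:75134231-75134263. Kcnma1 lies at chr14:23578472-23578504, Kcnj10 at chr1:172196860-172196892 and Kcnj14 at chr7:45469048-45469080, and the downstream filter of Kcnk9 lies at chr15:72384559-72384591.
Kcnc2: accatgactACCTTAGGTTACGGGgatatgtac
Kcng4: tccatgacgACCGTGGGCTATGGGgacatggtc
Kcnh4: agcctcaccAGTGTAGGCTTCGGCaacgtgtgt
Kcnh5: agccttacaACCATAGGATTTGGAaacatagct
Kcnma1: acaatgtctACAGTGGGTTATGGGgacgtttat
Kcnj10: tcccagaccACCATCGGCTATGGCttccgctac
Kcnj14: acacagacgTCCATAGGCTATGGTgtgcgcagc
Kcnk9: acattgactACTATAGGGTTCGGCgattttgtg

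The first question was which channels each tissue of the Ctrl mice used. Per length, as TPM (counts divided by transcript length, then scaled to a common total), the most abundant channel genes of Ctrl frontal cortex were auxiliary: Kcnab2, a Kvbeta subunit, at 279 ± 12.7 TPM (SD, n = 4), Kcnip3 at 131 ± 4.51 and Kcnip2 at 117 ± 1.58. Among pore subunits there, Kcnk1 of the two-pore-domain class reached 112 ± 5.74 TPM and Kcnc2, a fast Kv3 subunit, 74.6 ± 0.814. Kcnj9, a G protein-gated inward rectifier, stood at 72.4 ± 1.07 TPM, Kcnh3, an ELK subunit, at 62.7 ± 2.79, and Kcnma1, the large-conductance calcium-activated (BK) channel, at 59.6 ± 3.23. Kcna1 at 60.4 ± 1.11 TPM could not be told from Kcnma1 beyond their spread. Silent subunits were led by Kcnf1 at 51.1 ± 1.25 TPM and Kcnv1 at 47.2 ± 1.58. The next members of their families were Kcna6 (53.2 TPM), Kcnj3 (49.8), Kcnj16 (39.4), Kcnn2 (29.4), Kcnq5 (24.8), Kcng1 (21.0), Kcnk4 (16.4), Kcnq3 (14.9), Kcnk2 (14.5), Kcnt1 (13.9) and Kcnh7 (13.9), with Kcnh1 at 20.03.

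Cerebellum had another order. Kcnk1 stood at 300 ± 8.93 TPM in Ctrl cerebellum (SD, n = 4) and Kcnab1 at 263 ± 7.49 TPM, Kcnip4 at 209 ± 8.93, Kcnc1 at 178 ± 12.8 and Kcna1, a Kv1 subunit of axons, at 156 ± 1.34. Most Kcnab1 counts there were of a transcript without an annotated coding sequence. Over its protein-coding transcripts alone, Kcnab1 was lower in Ctrl cerebellum than in Ctrl frontal cortex (log2 -0.38). A silent subunit, Kcng4, reached 141 ± 0.955 TPM, against 122 ± 1.90 for Kcnma1 and 116 ± 5.20 for Kcnip1. Kcnma1 and Kcnip1 lie next to each other in that order and differ by little more than the larger SD. Of the EAG, ERG and ELK subunits, Kcnh1 was highest in Ctrl cerebellum at 25.9 ± 0.180 TPM, with Kcnh2 next at 10.4 ± 0.380. The 3 highest inward rectifiers were the same in both tissues, with Kcnj9 at 77.6 ± 1.88 TPM, Kcnj3 at 44.3 ± 1.21 and Kcnj16 at 40.3 ± 1.57. Below them the order changed. Kcnj4 stood at 38.2 TPM in Ctrl frontal cortex and 0.193 in Ctrl cerebellum, and Kcnj12 at 2.79 and 30.8. Kcnt1, a sodium-activated channel, stood at 49.0 TPM, Kcnk10 at 40.1, Kcnn2 at 33.3, Kcnk3 at 19.3 and Kcns2, the silent subunit after Kcng4, at 8.98. Kcnh2, the ERG channel of cardiac repolarization, was among the 3 highest of its family in cerebellum and not in frontal cortex.

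**Figure D1:**
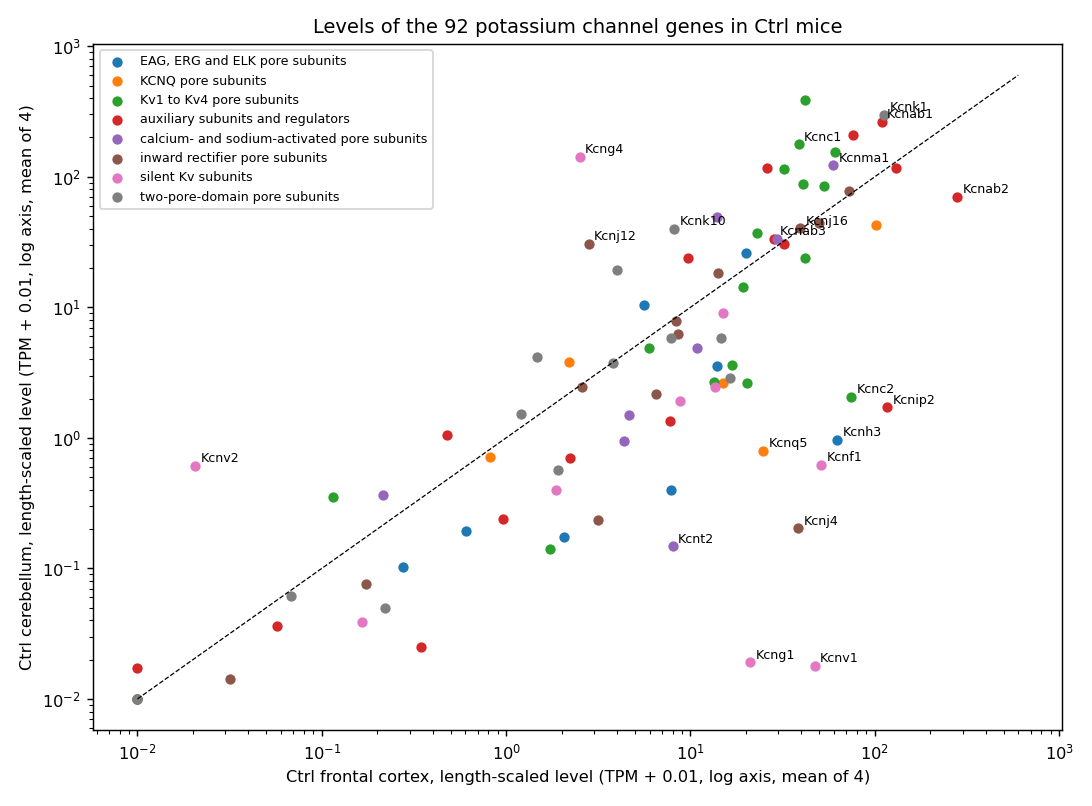
Mean length-scaled level (TPM + 0.01, both axes logarithmic, 4 libraries per tissue) of each of the 92 potassium channel genes in Ctrl frontal cortex (x) and Ctrl cerebellum (y), coloured by family, with equality dashed. Kcng4 lies far above the line, while Kcnv1, Kcng1, Kcnj4 and Kcnip2 lie far below it.

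Between the Ctrl tissues most channel genes differed. Here and below, a call needed more than 2-fold change together with an adjusted p under 0.01 (edgeR quasi-likelihood F test across all genes, Benjamini-Hochberg adjustment), and it is said to be higher or lower at an adjusted p under 0.01 with any fold. Of 79 channel genes tested, 16 were called higher and 35 lower in cerebellum, against 9.18% called higher and 15.9% called lower of all 17521 genes. With no fold limit, 24 were higher and 43 lower, against 34.4% and 35.1% of all genes. The median log2 difference, cerebellum against frontal cortex, was -0.56 for the channel genes and -0.01 for all genes. A tissue that holds fewer cells of a type and a tissue whose cells hold less of an RNA cannot be told apart in such bulk libraries.

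Kcng4 (chr8:120349688-120362762, minus strand) showed the clearest preference for cerebellum. It measured 5.13, 5.33, 5.10 and 5.28 CPM in the Ctrl frontal cortex libraries and 281, 285, 282 and 284 in the Ctrl cerebellum libraries. No library of one tissue came near the other, and the log2 difference was 5.70 (SE 0.032, adjusted p = 1.42e-29). The other members named as higher in cerebellum were Kcnj12 (3.34 on the log2 scale), Kcnk10 (2.42), Kcnip1 (1.96), Kcnc1 (1.91), Kcnt1 (1.77), Kcnd2 (1.73), Kcnip4 (1.33), Kcnk1 (1.30), Kcna1 (1.24) and Kcnab1 (1.03). Among them are the Kv3 subunit Kcnc1 and the A-type subunit Kcnd2 with its KChIP partners Kcnip1 and Kcnip4. Most counts of Kcnab1 in Ctrl cerebellum were of 1 transcript without an annotated coding sequence (ENSMUST00000161404, 196 to 212 CPM). Summed over transcripts annotated as protein coding, its log2 difference was -0.38.

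In the opposite direction, several genes with high levels in frontal cortex were nearly missing from cerebellum. Kcnv1, a silent subunit, measured 98.8, 92.5, 95.3 and 97.5 CPM in Ctrl frontal cortex, whereas the 4 Ctrl cerebellum libraries together held 2 counts. The ratio was 6070, with an exact 95% interval of 1680 to 50200 that covers counting error only. Kcng1, another silent subunit, measured 34.1 to 37.3 CPM in Ctrl frontal cortex, and 2 counts in 1 of 4 Ctrl cerebellum libraries and 0 in the others gave a ratio of 2220 (615 to 18300). Kcnip2 fell from a mean of 122 CPM to 1.29 (log2 -6.63, SE 0.058), Kcnf1 from 101 to 1.15 (log2 -6.53), Kcnh3 from 107 to 1.59 (log2 -6.13) and Kcnc2 from 147 to 4.02 (log2 -5.25). Their libraries did not overlap between tissues. Kcnj4, a strong inward rectifier, differed by -7.78 on the log2 scale, Kcnq5 by -5.10, Kcnq3 by -2.64 and Kcnab2 by -2.15. By family, 6 of 8 EAG, ERG and ELK genes, 6 of 9 silent subunits tested and 3 of 5 KCNQ genes were called lower in cerebellum. Two-pore-domain genes were divided, with 4 called higher and 3 called lower of 10 tested.

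The second question was what changed in frontal cortex without Upf3b. Of 80 channel genes tested, 7 were called higher and 0 lower in Upf3b-KO, and every one of the 7 was also called by DESeq2, which called no others. Over transcripts annotated as protein coding alone, 6 genes were called higher, 5 of them among the 7. The share called higher was 8.75%, close to the 9.16% of all 18218 genes, and for calls lower the background was 1.06%. With no fold limit, 29 were higher and 22 lower, against 23.1% and 20.5% of all genes. The median log2 fold change was 0.01 for the channel genes and 0.00 for all genes. The 7 genes span 5 of the 8 families. Of the EAG, ERG and ELK subunits 6 of 8 were higher and 0 lower, while other families went both ways, such as the Kv1 to Kv4 subunits with 6 higher and 4 lower of 15 and the silent subunits with 3 higher and 4 lower of 8.

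Kcnab3 (chr11:69217066-69223870, plus strand), a Kvbeta subunit, had the smallest adjusted p of the channel genes. It measured 28.5, 27.2, 30.1 and 26.7 CPM in Ctrl and 77.1, 72.8, 76.0 and 71.8 in Upf3b-KO frontal cortex. Every Upf3b-KO library lay above every Ctrl library, and the log2 fold change was 1.33 (SE 0.040, adjusted p = 4.47e-17). An antisense RNA gene, Kcnab3os, overlaps it and stayed at 0.463 CPM or less in all libraries. The sources used here do not say if counting was stranded, and reads of overlapping genes on opposite strands may therefore be mixed.

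Kcnh4 (chr11:100631202-100650837, minus strand), an ELK subunit, had the largest fold change. Its Ctrl libraries held 2.82, 4.0, 3.45 and 3.29 CPM and its Upf3b-KO libraries 14.6, 13.7, 14.5 and 15.9, a log2 fold change of 2.04 (SE 0.10, adjusted p = 2.13e-13). Kcnh5, an EAG subunit, rose from 12.7, 13.2, 12.7 and 13.9 CPM to 27.1, 30.1, 35 and 31.8, by 1.17 on the log2 scale (SE 0.068, adjusted p = 4.01e-12). In neither gene did the groups overlap. Kcnh2 (log2 0.71, SE 0.070) and Kcnh1 (log2 0.59, SE 0.028) of the same family were higher by less than 2-fold, as were Kcnj5 (0.99), Kcnu1 (0.83) and Kcnt1 (0.72) of other families.

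Kcng4, the silent subunit that marked cerebellum, rose in frontal cortex from 5.13, 5.33, 5.10 and 5.28 CPM to 11.8, 12.2, 12.9 and 12.7 (log2 1.17, SE 0.082, adjusted p = 8.09e-11). Even so, its level in Upf3b-KO frontal cortex was far under the 281 CPM of the lowest Ctrl cerebellum library. Kcnk4, a leak channel opened by stretch and heat, rose from 9.56, 10.8, 9.27 and 10.1 CPM to 22.5, 21.0, 22 and 21.0 (log2 1.05, SE 0.065, adjusted p = 1.01e-11). It overlaps Catsperz, a gene of the sperm cation channel, on the same strand, and Catsperz moved from 1.49 to 2.33 CPM up to 8.85 to 9.86 (log2 2.25, SE 0.13), so how reads were divided between the 2 genes was not tested.

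A pair of low genes completed the calls. Kcne3, an auxiliary subunit of epithelia, measured 0.300, 0.667, 0.406 and 0.403 CPM in Ctrl and 1.97, 1.54, 1.85 and 2.0 in Upf3b-KO (log2 1.97, SE 0.27, adjusted p = 2.52e-06). Kcnn4, the intermediate-conductance calcium-activated channel of blood and epithelial cells, lay at 0.061 to 0.240 CPM in Ctrl and 0.395 to 0.784 in Upf3b-KO (log2 1.66, SE 0.46, adjusted p = 0.00436). Kcnn4 lost its call in 4 of the 8 fits that left out 1 library. Both sets of libraries were apart, but the Ctrl values of Kcnn4 rest on a few reads each.

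No channel gene was called lower in frontal cortex, and the largest decreases at an adjusted p under 0.01 stayed under 2-fold. Kcng2, a silent subunit, went from 4.68, 6.52, 6.72 and 5.49 CPM to 3.19, 2.88, 3.23 and 3.15 (log2 -0.99, SE 0.13). Kcnk9, a TASK leak channel, went from 20.7 to 22.5 CPM in Ctrl to 12.1 to 13.5 in Upf3b-KO (log2 -0.85, SE 0.060). The remaining ones named were Kcnk12 (-0.67), Kcnmb2 (-0.60), Kcne4 (-0.60), Kcne5 (-0.59), Kcns3 (-0.57), Kcng1 (-0.55), Kcnb2 (-0.55), Kcnd3 (-0.50), Kcnc2 (-0.47) and Kcnf1 (-0.41), all on the log2 scale. Among these are 4 silent subunits and 3 auxiliary subunits. Kcnj5 and Kcne4 were near the threshold, at adjusted p = 0.00669 and 0.00862 in the edgeR test, and each missed it in 7 of the 8 fits that left out 1 library. In frontal cortex the fitted log2 changes differed from those of the CPM means by a median of -0.08 over all genes above 10 CPM.

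Several marker lists moved with genotype in frontal cortex. The summed level of 10 choroid plexus genes was 22.2 to 23.9 CPM in Ctrl and 2253 to 2304 in Upf3b-KO, with 10 of 10 called higher. For 12 genes of striatal medium spiny neurons the sums were 282 to 296 and 1072 to 1083 CPM, with 11 of 12 called higher, and for 10 male germ cell genes 24.99 to 28.1 and 157 to 166, with 9 of 10 called higher. No list was at 0 in Ctrl, where Ttr, the leading choroid plexus gene, measured 7.46 to 8.38 CPM and Drd1 of striatal neurons 12.4 to 14.4. By contrast, 11 genes of cortical projection neurons summed to 1840 to 1904 and 1795 to 1804 CPM, with 0 called higher and 1 lower, and among 8 genes of endothelium and mural cells 0 were called. Of 6 ependymal genes 5 were called higher, while 0 were called of 8 genes each of oligodendrocytes (7 higher), astrocytes (7 lower), microglia and interneurons. Of 8 tested genes of thalamus, midbrain and brainstem neurons 2 were called higher, Chat from a mean of 0.183 CPM to 3.26 and Slc5a7 from 1.34 to 6.14, and 3 were lower, while the sum went from 112 to 114 CPM down to 99.5 to 107. Of 7 granule cell genes tested 1 was higher and 3 lower, 1 of them called, and of 6 Purkinje cell genes 2 were higher and 1 lower. What part these lists have in the changes of Kcne3, Kcnh4, Kcnk4 and the other channel genes was not tested.

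**Figure D2:**
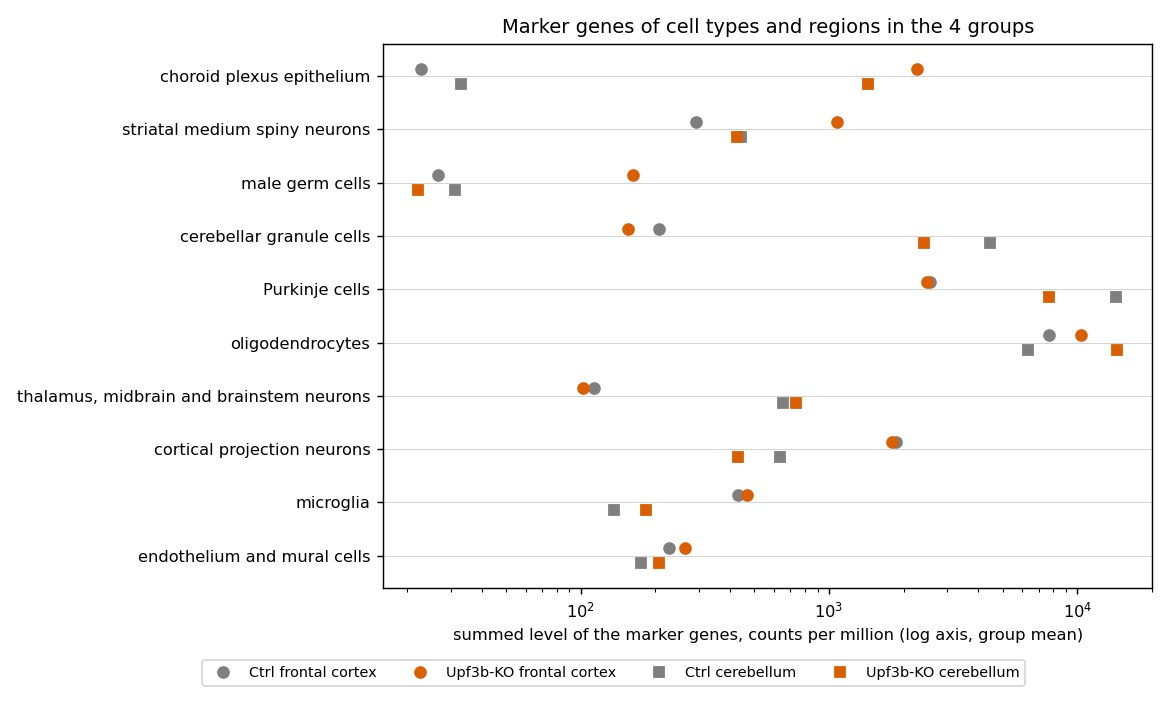
Summed level of marker genes (group mean, CPM, logarithmic x axis) for 10 of the 13 cell type and region lists (y), with circles for frontal cortex, squares for cerebellum, grey for Ctrl and orange for Upf3b-KO. The choroid plexus sum of frontal cortex was at most 23.9 CPM in Ctrl and at least 2253 in Upf3b-KO.

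The third question was the same in cerebellum. Here 28 of 80 channel genes tested were called higher in Upf3b-KO and 2 lower, which is 35% and 2.5% of them, against 10.3% and 2.86% of all 17785 genes. The share called higher was above the background and the share called lower was near it, with a limit set by the filter on low counts. Several of the 28 had Ctrl means under its minimum of 10 counts and entered through the Upf3b-KO group. They include Kcng1 (0.5 counts per Ctrl library), Kcnk15 (1.5), Kcna5 (4.75), Kcnj5 (5.75), Kcnj14 (6.14) and Kcnh8 (6.75). Such genes could be called only higher, so the share is a description and was not tested. With no fold limit, 38 were higher and 23 lower, against 28.5% and 26.8%. The median log2 fold change of the channel genes was 0.46, against 0.01 for all genes. With Upf3b-KO library 1 kept in the fit, 23 were called higher and 2 lower of 75 tested, all 25 of them among the 30.

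Families differed in their counts. Of 8 EAG, ERG and ELK genes, 4 were called higher (Kcnh2, Kcnh5, Kcnh6 and Kcnh8), and of 9 silent subunits tested 4 were called higher (Kcng1, Kcnv1, Kcns3 and Kcnf1) and 1 lower (Kcnv2). Inward rectifiers had 4 called higher (Kcnj14, Kcnj5, Kcnj10 and Kcnj2) and 1 lower (Kcnj6) of 11, two-pore-domain genes 4 higher (Kcnk15, Kcnk4, Kcnk13 and Kcnk9) of 11, and auxiliary genes 5 higher (Kcnmb2, Kcnab3, Kcnmb1, Kcnip2 and Kcnab2) of 13. Of 8 calcium- and sodium-activated genes 3 were called higher (Kcnt2, Kcnu1 and Kcnn1), of 15 Kv1 to Kv4 genes 3 (Kcna5, Kcnc2 and Kcna4), and of 5 KCNQ genes 1 (Kcnq5).

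Kcnc2 (chr10:112105226-112302929, plus strand) had the smallest adjusted p. Its Ctrl cerebellum libraries held 4.43, 3.53, 3.83 and 4.30 CPM and Upf3b-KO libraries 2 to 4 held 52.0, 55.0 and 54.5. The groups lay an order of magnitude apart, with a log2 fold change of 3.70 (SE 0.066, adjusted p = 3.14e-19), and the Upf3b-KO level was still under the 147 CPM mean of Ctrl frontal cortex. Library 1, which is not among these values, held 5 counts of Kcnc2, or 77.0 CPM with an exact 95% interval of 24.98 to 180 for counting error, which is above every Ctrl library. In frontal cortex the same gene was lower in Upf3b-KO.

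Several of the genes called higher were low in Ctrl cerebellum. Kcng1 had 2 counts in all in Ctrl and 5.30, 5.53 and 5.05 CPM in Upf3b-KO, a ratio of 335 (exact 95% interval 92.3 to 2780). Kcnv1 had 2 counts in Ctrl and 1.29, 1.14 and 1.23 CPM in Upf3b-KO, a ratio of 76.9 (20.8 to 642). Kcnj14, the inward rectifier Kir2.4 of motor neurons, measured 0.289, 0.105, 0.132 and 0.253 CPM in Ctrl and 12.9, 11.51 and 13.6 in Upf3b-KO (log2 5.93, SE 0.19, adjusted p = 2e-15). In Upf3b-KO cerebellum Kcnj14 stood above all frontal cortex libraries as well, whose highest value was 4.67 CPM. Kcnh5 moved from 0.470 to 0.794 CPM in Ctrl to 7.68, 9.14 and 9.19 (log2 3.73, SE 0.17), and Kcns3 from 1.82 to 2.53 to 11.7, 13.2 and 10.1 (log2 2.30, SE 0.13). None of these groups overlapped.

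Other calls were of genes already abundant in Ctrl cerebellum. Kcnab2, the Kvbeta subunit with the highest level in frontal cortex, went from 128, 125, 121 and 127 CPM to 291, 292 and 296 (log2 1.18, SE 0.022, adjusted p = 8.51e-19). Kcnj10, the inward rectifier Kir4.1 of astrocytes and oligodendrocytes, went from 38.6, 40.0, 38.8 and 39.8 CPM to 97.5, 103 and 101 (log2 1.30, SE 0.033, adjusted p = 5.00e-17). Kcnab3 again rose, from 33.7, 28.6, 30.8 and 32.6 CPM to 97.3, 91.5 and 92 (log2 1.52, SE 0.045, adjusted p = 5.03e-16). In all 3 genes the lowest Upf3b-KO library exceeded the highest Ctrl library by more than 2-fold.

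Kcnh2, the ERG subunit, rose from 17.9, 14.2, 16.3 and 15.6 CPM to 52.0, 53.1 and 51.0 (log2 1.65, SE 0.058). Kcnk9 rose from 18.7 to 21.1 CPM to 49.8, 46.5 and 47.0 (log2 1.19, SE 0.049), Kcnk13, a two-pore-domain channel found in microglia, from 6.36 to 7.40 to 15.7, 19.2 and 18.4 (log2 1.28, SE 0.090), and Kcnk4 from 1.26 to 1.76 to 6.36, 6.14 and 6.08 (log2 1.98, SE 0.15). Catsperz, which overlaps Kcnk4, rose there as well (log2 2.21, SE 0.32). For these 4 channel genes no Ctrl library reached the level of an Upf3b-KO library. The other 15 genes called higher had log2 fold changes of 1.01 (Kcnj2) to 4.02 (Kcna5).

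Only Kcnj6 and Kcnv2 were called lower by this test in cerebellum. Kcnj6, the G protein-gated subunit GIRK2, fell from 9.39, 9.31, 10.4 and 9.75 CPM to 4.56, 5.08 and 4.65 (log2 -1.07, SE 0.10, adjusted p = 2.19e-08). Kcnv2, a silent subunit known from the retina, fell from 0.926, 1.32, 1.19 and 1.41 CPM to 0.628, 0.539 and 0.382 (log2 -1.28, SE 0.31, adjusted p = 0.00132), but in a fit of all 15 libraries its adjusted p by edgeR was 0.0158. A larger group of genes with high levels in Ctrl cerebellum was lower by less than 2-fold. Kcnma1 went from 294, 292, 292 and 289 CPM to 152, 154 and 151 (log2 -0.99, SE 0.019, adjusted p = 8.85e-19), and Kcnj12 from 52.0 to 57.2 CPM to 28.2 to 29.3 (log2 -0.96). Then followed Kcns2 (-0.95), Kcnip1 (-0.84), Kcnk10 (-0.82), Kcnmb4 (-0.75), Kcnh1 (-0.72), Kcnab1 (-0.69), Kcnd2 (-0.64) and Kcnd3 (-0.60). Kcng4 went from 283 ± 1.8 CPM (SD, n = 4) to 193 ± 3.7 (n = 3). Over the transcripts of Kcnab1 annotated as protein coding, the log2 change was 0.13 in place of -0.69.

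Markers also moved with genotype in cerebellum. The sums of 9 granule cell genes were 4432 to 4474 CPM in Ctrl and 2413 to 2428 in Upf3b-KO, with 9 of 9 lower, and those of 9 Purkinje cell genes were 14200 to 14310 and 7648 to 7691, with 8 of 9 lower. Oligodendrocyte genes went from 6249 to 6369 CPM up to 14470 to 14580, with 8 of 8 higher, and choroid plexus genes from 31.2 to 34.6 up to 1429 to 1447, with 10 of 10 higher. Of 12 genes of thalamus, midbrain and brainstem neurons, 11 were tested, 8 were higher and 2 lower. Of these 11, 7 were called higher and 1 lower. Their sum was 634 to 666 CPM in Ctrl and 738 to 742 in Upf3b-KO. Most of the Ctrl sum was Calb2, the gene called lower, which went from a mean of 567.5 CPM down to 283.3. Slc17a6, which loads glutamate into vesicles in such neurons, went from 8.71 to 9.76 up to 155 to 157. Chat, the marker of cholinergic neurons, was at 0 in all 4 Ctrl libraries and at 13.0 to 14.5 CPM in Upf3b-KO. Of 8 genes of astrocytes and Bergmann glia 3 were higher and 5 lower, with sums of 4891 to 4922 CPM in Ctrl and 3348 to 3383 in Upf3b-KO, and of 8 microglial genes 7 were higher, from 133 to 140 up to 179 to 186. Of 8 interneuron genes 3 were higher and 4 lower, and their sum went from 2044 to 2060 CPM down to 1469 to 1481. Among them Sst went from 0.904 to 1.03 CPM up to 38.1 to 38.5, and Pvalb from a mean of 801 down to 535. Of 6 ependymal genes 5 were higher and 0 lower (sums 11.8 to 13.2 and 23.3 to 24.8 CPM), and of 8 endothelial and mural genes 3 were higher and 1 lower (171 to 181 and 201 to 210 CPM). Of 8 male germ cell genes tested 6 were higher and 1 lower, but the sum went from 30.3 to 31.9 CPM down to 20.9 to 23.4. The lower gene, Sycp1, made up most of the Ctrl sum and went from a mean of 28.4 CPM down to 9.53. Of 11 striatal genes 6 were higher and 1 lower (436 to 446 and 423 to 430 CPM), and of 8 genes of cortical projection neurons 2 were higher and 4 lower (626 to 650 and 424 to 432 CPM). What part these lists have in the changes of Kcnj10, Kcnc2, Kcnj14 and the other channel genes was not tested.

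**Figure D3:**
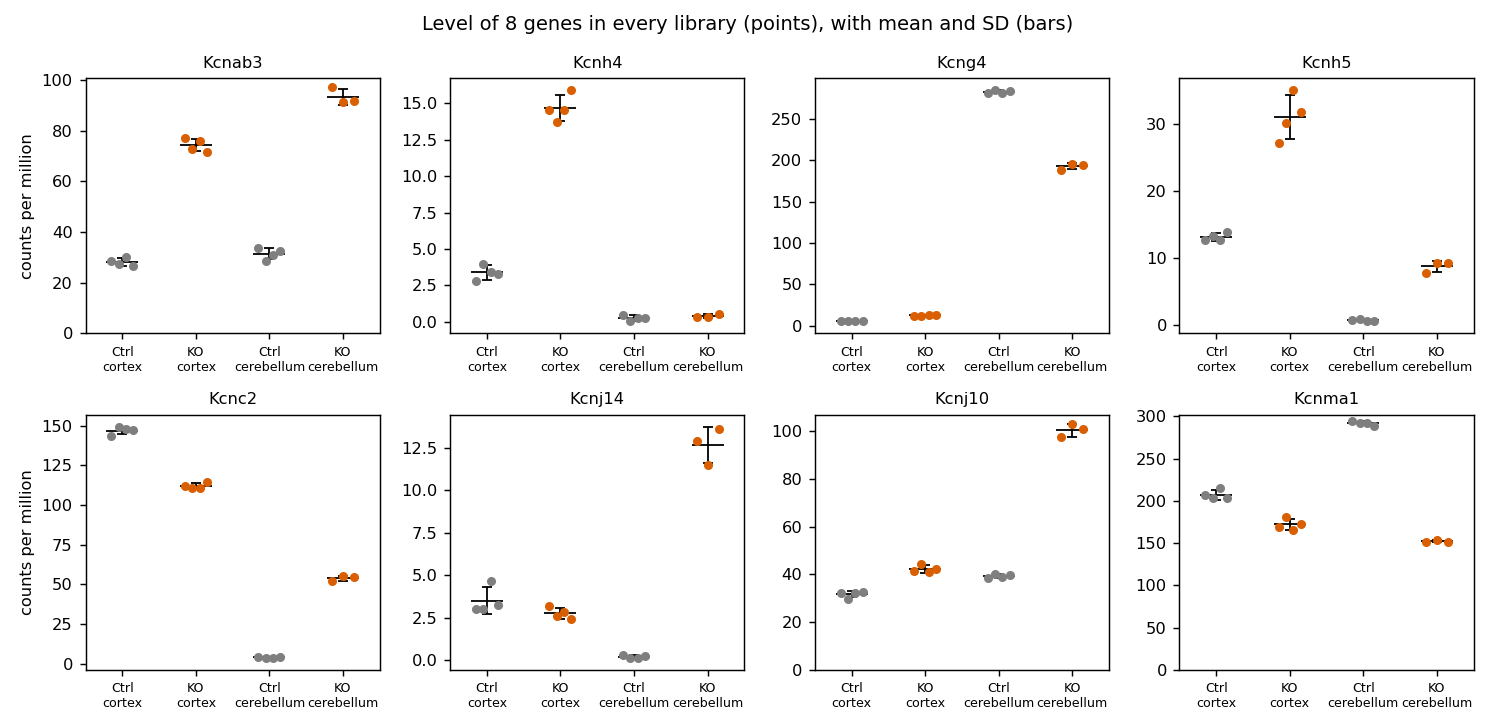
CPM of 8 channel genes (y, linear axes from 0) in every library used, in 4 groups on the x axis, with horizontal bars for the mean and whiskers for the SD (grey Ctrl, orange Upf3b-KO, n = 4 except n = 3 for Upf3b-KO cerebellum). Kcnab3 was higher in Upf3b-KO in both tissues, Kcng4 moved in opposite directions, and Kcnma1 was lower in both.

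The fits of the 2 tissues share no library, although the study took both tissues from the same 4 mice of each genotype. Among 78 channel genes tested in both, 3 were called higher in both: Kcnab3, Kcnh5 and Kcnk4. They are 42.9% of the 7 genes called in frontal cortex and 10.7% of the 28 called in cerebellum. Over all genes the 527 called higher in both are 31.6% and 28.8% of the respective lists. With no fold limit, 12 genes were higher in both (41.4% of 29 and 31.6% of 38), among them Kcnh2, Kcnh7, Kcnj10 and Kcnk13, and 6 were lower in both (27.3% of 22 and 26.1% of 23): Kcnd3, Kcnip4, Kcnj3, Kcnk3, Kcnma1 and Kcnmb4. Over all genes the shares were 42.8% and 35.6% for genes higher in both and 44.7% and 35.1% for genes lower in both. In all, 20 channel genes went in opposite directions and 18 in the same direction. Higher in frontal cortex and lower in cerebellum were 9 genes, among them Kcna1, Kcnc1, Kcng4, Kcnh1, Kcnj9, Kcnk1, Kcns2 and Kcnt1. The Ctrl libraries of each tissue also enter the comparison between Ctrl tissues, so levels there and changes here are not independent. Lower in frontal cortex and higher in cerebellum were 11 genes, among them Kcnc2, Kcnf1, Kcng1, Kcnk9, Kcnq5 and Kcns3. The 9 are 31.0% of 29 and 39.1% of 23, against 13.5% and 12.0% over all genes, and the 11 are 50% of 22 and 28.9% of 38, against 27.2% and 20.1%. These shares are a description and were not tested.

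**Figure D4:**
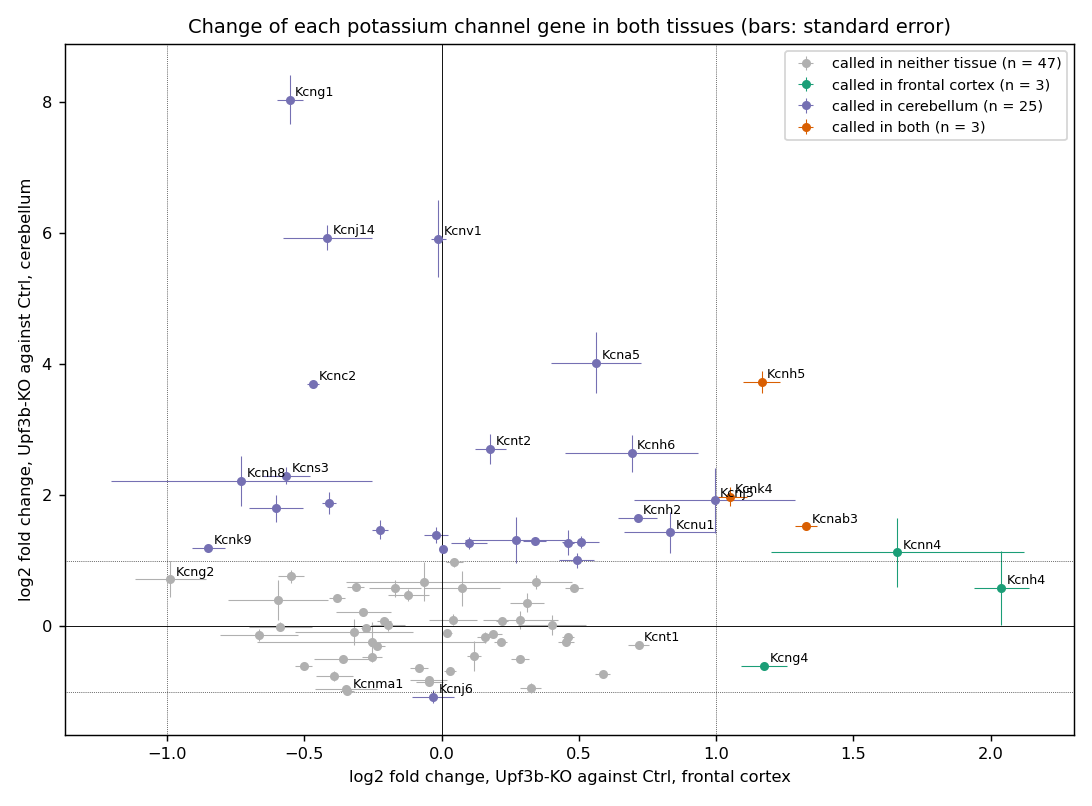
Log2 fold change of Upf3b-KO against Ctrl (points, with bars for the standard error) for the 78 channel genes tested in both tissues, frontal cortex on x and cerebellum on y, with dotted lines at 2-fold. Kcnab3, Kcnh5 and Kcnk4 were called in both tissues, and 25 genes were called in cerebellum only among these 78.

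An interaction term fitted over 15 libraries tested whether the effect of genotype depended on tissue. Libraries of the 2 tissues entered it, and the comparison of Ctrl tissues, as independent samples, because the labels do not say which of them came from the same mouse. Of 82 channel genes tested, 19 had a more positive change in cerebellum and 6 a more positive change in frontal cortex at the thresholds for a call, against 6.36% and 3.04% of all 19831 genes. Kcng4 was the clearest of the 6 (log2 difference between the changes -1.79, SE 0.053, adjusted p = 1.30e-19), followed in order of adjusted p by Kcnh1 (-1.32), Kcnt1 (-1.01), Kcns2 (-1.28), Kcnj6 (-1.05) and Kcnh4 (-1.46). Kcnh4 held its call in 4 of the 15 fits that left out 1 library, and its cerebellar level was at most 0.558 CPM. The same sign without 2-fold difference was found for Kcnip1 (-0.81), Kcnk10 (-0.79), Kcnab1 (-0.73), Kcnk1 (-0.70) and Kcnma1 (-0.66), each at an adjusted p under 0.01. Over protein-coding transcripts alone the Kcnab1 value turned to 0.048 and did not pass. In the other direction Kcnc2 was clearest (4.15, SE 0.057, adjusted p = 1.30e-26). Kcnab3 differed little between tissues: its interaction was 0.19 (SE 0.063, adjusted p = 0.0161), which missed the threshold.

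Single transcripts were tested in the same way within each tissue. In frontal cortex 181 transcripts of channel genes were tested, of which 9 were called higher and 1 lower, against 2.76% and 0.463% of all 42318 transcripts. In cerebellum 178 were tested, of which 30 were called higher and 9 lower, against 3.45% and 1.31% of all 44388. The count of 39 in cerebellum fell to 22 with Upf3b-KO library 1 kept and to 11 with the replicate number as a block. With 15 libraries in one fit 38 were called higher and 3 lower, and 28 of the 30 higher calls but 2 of the 9 lower ones, those of Kcnk10 and Kcnj6, remained. The calls came from 9 and 30 genes.

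Transcripts with a downstream exon junction (dEJ, a stop codon at least 50 nt upstream of the last junction, the classic mark of an NMD target) were few. Of the 395 transcripts, 16 had one. Of the 7 tested in frontal cortex 2 were higher and 0 lower, with a median log2 fold change of 0.55, beside 4.86% higher, 1.03% lower and a median of 0.28 for all 2613 such transcripts tested. Of the 5 tested in cerebellum 0 were higher or lower, with a median of -0.15, beside 5.04% higher, 1.60% lower and a median of 0.24 for all 2875. The 2 were those of Kcnh4 and Kcna6.

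The tested transcript of Kcnh4 (ENSMUST00000107361) has its stop codon 310 nt upstream of the last junction. It rose in frontal cortex from 2.82, 4.0, 3.45 and 3.29 CPM to 14.6, 12.9, 14.3 and 15.3 (log2 2.01, SE 0.13, adjusted p = 2.89e-05), and carried nearly all of the change of the gene. In cerebellum it lay at 0 to 0.463 CPM in all libraries, and its log2 change of -0.26 had an adjusted p of 0.917. The stop codon lies at chr11:100632429-100632431 on the minus strand and is in capitals below, because its place before the last junction is what puts this transcript among candidate NMD targets.
Kcnh4 stop codon: tcagacacattccacTGAccctggccttgg

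Kcna6, a Kv1 subunit, has a transcript of the annotated decay type (ENSMUST00000040751) whose stop codon lies 3120 nt upstream of the last junction. It made up most of the gene in every group, with a mean of 96.4 CPM in Ctrl and 114 in Upf3b-KO frontal cortex, a log2 fold change of 0.18 (adjusted p = 0.00214, edgeR). In cerebellum it measured 130 and 148 CPM (log2 0.19, adjusted p = 0.0686, edgeR). Neither change approached 2-fold. The Kcnk4 decay transcript ENSMUST00000237484 went from 1.69 to 3.57 CPM in frontal cortex without passing (adjusted p = 0.0473, edgeR).

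Of 14 retained-intron transcripts of channel genes tested in frontal cortex 2 were higher and 0 lower (median log2 -0.22), beside 1.02% higher and 0.771% lower of all 5574 (median -0.09). Of 15 in cerebellum 1 was higher and 2 lower (median -0.59), beside 1.43% and 1.88% of all 6797 (median -0.27). The 2 in frontal cortex belong to Kcnab3 and Kcnip2. Kcnip2, a KChIP subunit of A-type channels, has ENSMUST00000111906, which went from 3.09, 3.99, 3.34 and 1.78 CPM to 17.0, 12.8, 14.9 and 15.6 (log2 2.25, SE 0.24, adjusted p = 4.49e-04). The lowest of the Upf3b-KO libraries was above 3 times the highest Ctrl library.

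Kcnab3 rose through both of its main transcripts. The coding one (ENSMUST00000018614) measured 18.8 to 21.9 CPM in Ctrl frontal cortex and 49.2, 48.9, 47.2 and 39.0 in Upf3b-KO (log2 1.13, SE 0.085). The retained-intron one (ENSMUST00000142328) went from 9.42, 6.999, 8.18 and 6.72 CPM to 27.9, 23.9, 28.2 and 32.4 (log2 1.78, SE 0.14). In cerebellum the log2 changes were 1.46 (SE 0.072) and 1.77 (SE 0.14). The retained-intron transcript took 25.2% to 33.4% of the pair in Ctrl frontal cortex and 32.8% to 45.3% in Upf3b-KO, and 30.0% to 38.5% and 35.4% to 42.4% in cerebellum, so its share overlapped between genotypes in both tissues. It begins inside intron 1 and runs without a break into exon 2 (chr11:69218946-69218989), whose boundary is shown with the last 60 bases of the intron in lower case and the 44 bases of the exon in capitals.
Kcnab3 intron 1 to exon 2: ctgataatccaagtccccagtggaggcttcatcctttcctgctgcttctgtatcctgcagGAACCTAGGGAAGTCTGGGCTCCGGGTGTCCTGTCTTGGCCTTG

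Kcnj16 encodes the inward rectifier Kir5.1, which pairs with Kir4.1 (Kcnj10). Its 2 main transcripts differ in their first exon on chromosome 11 and share the others. The proximal one (ENSMUST00000106635, first exon chr11:110887912-110888423) measured 65.6, 59.0, 63.7 and 67.2 CPM in Ctrl frontal cortex and 36.5, 23.5, 21.4 and 24.4 in Upf3b-KO (log2 -1.34, SE 0.16, adjusted p = 8.31e-04). The distal one (ENSMUST00000106636, first exon chr11:110858843-110858921) held 0, 2.98, 0.564 and 0.260 CPM in Ctrl and 19.1, 31.5, 34.2 and 31.9 in Upf3b-KO, and its adjusted p of 0.0110 (edgeR) missed the threshold although the groups were apart.

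In cerebellum the distal transcript of Kcnj16 was below 1 count in each of the 4 Ctrl libraries and measured 58.6, 47.4 and 71.6 CPM in Upf3b-KO, at least 619-fold higher against a floor of 3 counts per library (adjusted p = 1.17e-04). The proximal one went from 57.2 to 68.2 CPM to 40.2, 55.2 and 31.7 (log2 -0.58, adjusted p = 0.0556, edgeR). Summed, the pair stood at 64.8 ± 2.3 CPM (SD, n = 4) in Ctrl and 55.6 ± 0.53 in Upf3b-KO frontal cortex, and at 63.3 ± 4.7 and 102 ± 2.4 (n = 3) in cerebellum. The sum therefore varied less between Upf3b-KO libraries than either transcript, whose split is an estimate. In Upf3b-KO the distal transcript took 34.3% to 61.6% of the pair in frontal cortex and 46.2% to 69.3% in cerebellum, against at most 4.81% in any Ctrl library. The 100 bases before each first exon are shown, since that is where the 2 forms part. They contain 0 (proximal, chr11:110887812-110887911) and 2 (distal, chr11:110858743-110858842) CG pairs.
Kcnj16 proximal start: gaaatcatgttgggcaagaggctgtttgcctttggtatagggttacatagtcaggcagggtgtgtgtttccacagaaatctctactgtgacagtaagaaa
Kcnj16 distal start: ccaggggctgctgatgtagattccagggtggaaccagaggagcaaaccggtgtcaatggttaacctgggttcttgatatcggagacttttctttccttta

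Kcnma1 (chr14:23339499-24064559, minus strand) had transcripts that differed both between tissues and between genotypes. One (ENSMUST00000065788) contains an exon of 9 nt and lacks one of 81 nt, and another (ENSMUST00000179097) the reverse, with all other exons shared. The first measured 40.3, 42.1, 49.7 and 42.3 CPM in Ctrl cerebellum, 1.91, 0 and 0 in Upf3b-KO cerebellum, and 0 in all 8 frontal cortex libraries (cerebellum log2 -6.19, SE 1.1, adjusted p = 0.00683). The second was at 0 in the 4 Ctrl cerebellum libraries, at 24.1, 16.1 and 23.4 CPM in Upf3b-KO cerebellum (at least 222-fold higher against 3 counts per library, adjusted p = 1.95e-04), and at 35.8 to 44.3 and 25.01 to 32.0 CPM in Ctrl and Upf3b-KO frontal cortex. Cerebellum of Upf3b-KO thus listed the form found in frontal cortex, and nearly none of the form found in Ctrl cerebellum. The many transcripts of Kcnma1 share most exons, and a value listed at 0 can be a product of the estimate. The 2 exons are shown in capitals with 15 intron bases on each side, the short one at chr14:23437160-23437168 and the long one at chr14:23386108-23386188.
Kcnma1 short exon: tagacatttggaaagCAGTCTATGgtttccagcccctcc
Kcnma1 long exon: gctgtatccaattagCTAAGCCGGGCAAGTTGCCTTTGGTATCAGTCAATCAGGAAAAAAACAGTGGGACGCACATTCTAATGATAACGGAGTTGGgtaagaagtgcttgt

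**Figure D5:**
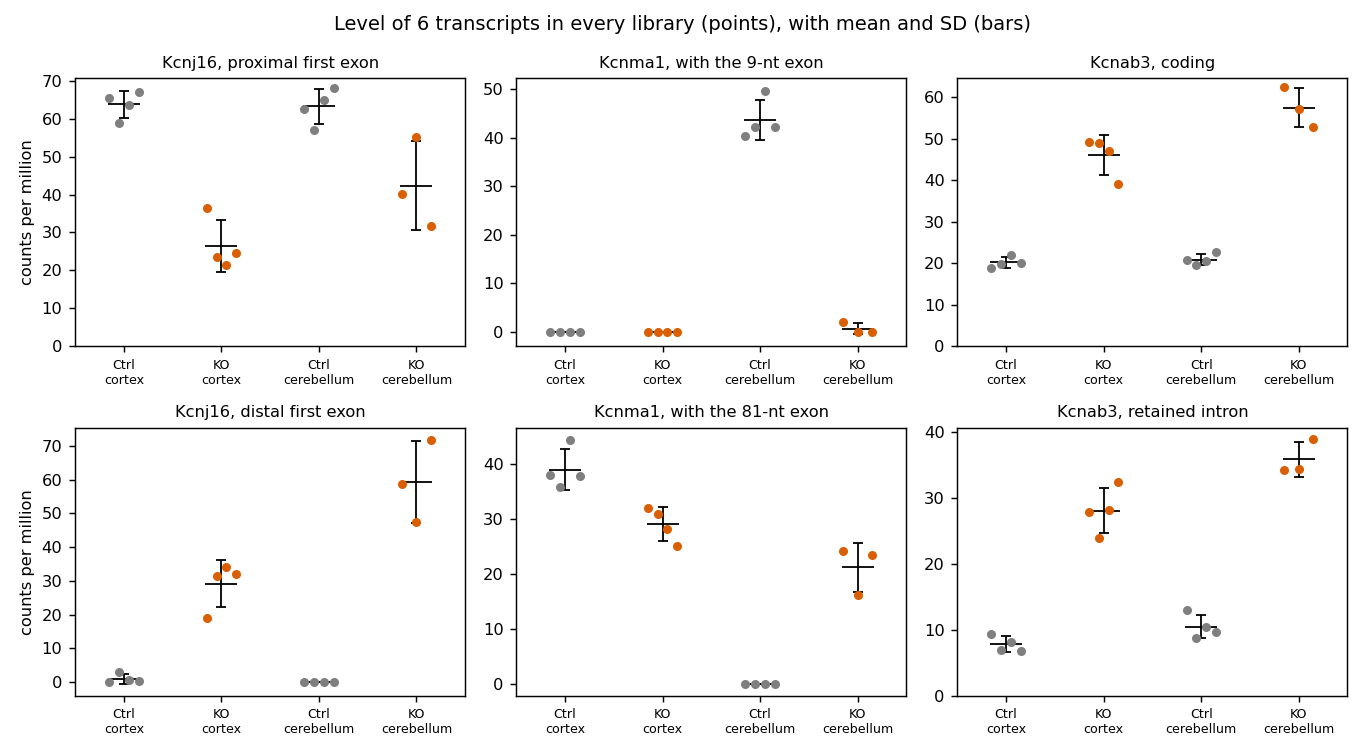
CPM of 6 transcripts (y, linear axes from 0) in every library used, in 4 groups on the x axis, with horizontal bars for the mean and whiskers for the SD (grey Ctrl, orange Upf3b-KO). The distal Kcnj16 form was at most 2.98 CPM in Ctrl and at least 19.1 in Upf3b-KO, and the 2 Kcnma1 forms changed places in cerebellum.

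Of the 39 transcripts called in cerebellum 35 had the sign of their gene's change and 4 the opposite sign, 1 each of Kcnab2, Kcnip1, Kcnma1 and Kcnt1. Kcnj10 (ENSMUST00000056136) had the smallest adjusted p (log2 1.35, SE 0.030, adjusted p = 3.70e-07), followed by those of Kcnc2 (3.82), Kcnk9 (1.24), Kcnab2 (ENSMUST00000238738, 1.34), Kcnab3 (1.46), Kcnh5 (3.79), Kcnj14 (6.10) and Kcnq3 (1.02). In 5 genes, Kcnab1, Kcnab2, Kcnip1, Kcnma1 and Kcnt1, transcripts passed an adjusted p of 0.01 in both directions. Of Kcnip1, ENSMUST00000238903, listed at 0 in Ctrl frontal cortex, fell from 78.5, 79.1, 79.9 and 86.6 CPM to 35.2, 31.3 and 31.4 (log2 -1.32, SE 0.058), whereas ENSMUST00000109340 went from 4.30 to 6.41 CPM up to 11.51, 17.3 and 13.7 (log2 1.40, SE 0.20). The other transcripts named as lower were 2 of Kcnab1 (-1.32 and -1.47), 1 each of Kcnk10 (-1.06) and Kcnab2 (ENSMUST00000238715, -2.33), 2 of Kcnma1 (ENSMUST00000224025, -1.15, and the one with the 9-nt exon), 1 of Kcnip4 (ENSMUST00000176978, -1.05), and a retained-intron transcript of Kcnj6 (ENSMUST00000232403). Of these and the Kcnip1 transcript, only those of Kcnk10 and Kcnj6 were also called with 15 libraries in one fit (adjusted p of the others 0.0147 to 0.486, edgeR). The Kcnj6 transcript went from a mean of 1.23 CPM to under the floor, at least 13.3-fold lower. In frontal cortex the remaining called transcripts were those of Kcng4 (1.19), Kcnh5 (1.18), Kcnk4 (ENSMUST00000237766, 1.70), Kcnu1 (4.26) and Kcnk10 (ENSMUST00000110113, 2.10), all higher in Upf3b-KO.

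Proteins that bind channels but carry other names were counted as a group of 26: DPP modulators of Kv4, BK gamma subunits of the LRRC family, sulfonylurea receptors, calmodulins, G protein regulators, and scaffold and adhesion proteins. In frontal cortex 7 of 25 tested were higher and 11 lower, with a median log2 fold change of -0.04, and 1 was called, beside 23.1% higher, 20.5% lower and 9.16% called higher of all genes. That one, Lrrc52, a partner of the sperm potassium channel Kcnu1, went from a mean of 0.030 CPM to 0.516 (log2 3.86, adjusted p = 4.17e-05, edgeR), and Kcnu1 itself from 2.39 to 4.48. In cerebellum 4 of 24 were higher and 16 lower, beside 28.5% and 26.8% of all genes, with a median of -0.20. There 0 were called, beside 10.3% called higher and 2.86% called lower of all genes. Without the fold limit 20 passed an adjusted p under 0.01. Dpp10 (-0.77), an extracellular modulator of Kv4, and Calm2 (-0.53) were among those lower, beside Kcnd2 and Kcnip1 in the same libraries. Lrrc55, a BK gamma subunit, was higher in both tissues (0.63 in frontal cortex and 0.95 in cerebellum, log2), where Kcnma1 was lower in both.

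Not every member could be tested. Kcna10, Kcna7, Kcne1, Kcng3, Kcnj1, Kcnj15, Kcnk16, Kcnk18, Kcnk7 and Kcnmb3 failed the filter on low counts in all 4 comparisons, at most 0.510 CPM in any library used. Kcnj1 and Kcnk18 were at 0 in every group mean. In addition Kcnk15 and Kcnv2 were not tested in frontal cortex, Kcne3 and Kcnj4 not in cerebellum, and Kcne3, Kcnk15 and Kcnn4 not between Ctrl tissues. A member such as Kcnk15, at 0.05 CPM in Ctrl and 0.56 in Upf3b-KO cerebellum, entered the test only through the group in which it is high.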

How the data were processed

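Bulk RNA-seq of 16 libraries was used. The authors depleted ribosomal RNA, prepared libraries with a SMART-Seq kit, aligned read pairs to GRCm39 with STAR 2.5.2b (per the submitters' processing notes) and estimated transcripts with RSEM on Ensembl release 105. The deposited values are expected counts per transcript, unscaled for depth or length. Strand use in counting was not given in the sources used here. Reads that fit several isoforms or similar genes are divided by the model.

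Identifiers of 141102 of the 142435 transcripts were found in GENCODE vM39, and the other 1333 were assigned to no gene. Counts were rounded and tested across all genes or transcripts in R 4.3.3 with edgeR 4.0.16 (limma 3.58.1, the data.table package, version 1.17.8): filterByExpr (minimum count 10, total 15), TMM scaling, quasi-likelihood F test, Benjamini-Hochberg adjustment. The SE is the log2 fold change divided by the square root of F. DESeq2 1.42.0 was an alternative. Fits were tested on simulated counts, where changed genes were recovered well but many changed single transcripts were missed. A transcript that did not pass may therefore still have changed. CPM uses the total of all deposited transcripts. Floors are 3 counts and intervals are at 95%, for counting error only.

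Channel genes, families, partners and marker lists were chosen with earlier results of these data known. Named genes are, per comparison, up to 12 in each direction, called ones first by adjusted p, then by size of change among those at an adjusted p under 0.01, and the 3 highest of each family per tissue. Named transcripts are up to 8 called per direction by adjusted p, and those with a dEJ or decay type at an adjusted p under 0.01. Genes outside the rule were named after their values were seen or to complete a count. Results of some channel genes are not reported here.

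Groups were those of tissue and genotype in the labels. Tests compared genotypes within each tissue, Ctrl tissues with each other, and the change between tissues. Upf3b-KO cerebellum library 1 (64981 counts, against 27660078 to 35238677 in the others) was left out. Alternatives were DESeq2, another scaling, looser and stricter filters, the replicate number as a block, all 15 libraries in one fit, the shallow library kept, protein-coding transcripts only, other thresholds, and each library left out in turn.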

Additional observations from a re-analysis of the deposited data

Results flagged for a closer look

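The change with genotype differed between tissues for 25 channel genes by the interaction test (edgeR, adjusted p under 0.01 and over 2-fold). The log2 change in cerebellum minus that in frontal cortex was 8.57 for Kcng1, 6.33 for Kcnj14, 5.91 for Kcnv1, 4.15 for Kcnc2, 3.45 for Kcna5, 2.93 for Kcnh8, 2.85 for Kcns3, 2.55 for Kcnh5, 2.51 for Kcnt2, 2.39 for Kcnmb2 and 2.28 for Kcnf1. It was 2.03 for Kcnk9, 1.94 for Kcnh6, 1.70 for Kcng2, 1.68 for Kcnq5, 1.40 for Kcna4, 1.30 for Kcnb2, 1.16 for Kcnab2 and 1.16 for Kcnn1. Negative values were those of Kcng4 (-1.79), Kcnh4 (-1.46), Kcnh1 (-1.32), Kcns2 (-1.28), Kcnj6 (-1.05) and Kcnt1 (-1.01). The values of Kcng1 and Kcnv1 rest on 2 counts each in Ctrl cerebellum and depend on the prior count of the fit.

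In 156 groups of 4 libraries of the 52 named genes, 16 had a library apart from the other 3 by Dixon's criterion, and chance alone flags about 1 group in 20. In Ctrl frontal cortex, library 3 stood apart for Kcnd2 (73.0 CPM), Kcne4 (2.06), Kcng1 (37.3), Kcnj14 (4.67) and Kcnmb4 (18.6), library 4 for Kcnb2 (36.4) and library 2 for Kcnj10 (29.8). In Ctrl cerebellum, library 4 stood apart for Kcnip2 (1.66 CPM), Kcnj5 (0.434), Kcnu1 (0.253) and Kcne3 (0.0723), library 2 for Kcnmb4 (15) and Kcng1 (0.0588), and library 1 for Kcns3 (1.82). In Upf3b-KO frontal cortex, library 4 stood apart for Kcnab1 (152 CPM) and library 3 for Kcnv2 (0.0659). The values of Kcne3, Kcng1 and Kcnv2 are of a few reads.

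Upf3b-KO cerebellum library 1, which was left out of the comparisons except as an alternative, held 5 or more counts of 21 channel genes. For Kcnab2 (230.8 CPM) and Kcnc2 (76.95 CPM) the exact 95% counting interval lay above every Ctrl cerebellum library. For all 21 the interval met the range of the 3 other Upf3b-KO cerebellum libraries.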

How the results depend on the processing

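Counts of called channel genes and transcripts moved by over 1.5 times mainly with the threshold. With a fold over 1.5, 18 genes passed in frontal cortex (12 higher, 6 lower), 46 in cerebellum and 44 in the interaction. Without a fold limit these were 51, 61 and 59 genes at an adjusted p under 0.01, and 59, 64 and 62 at 0.05, and for transcripts 34 in frontal cortex and 59 in cerebellum at 0.01 and 51 and 82 at 0.05. DESeq2 called 16 transcripts in frontal cortex in place of 10. With the shallow library kept, 22 transcripts were called in cerebellum in place of 39.

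With the replicate number as a replicate block, 6, 29, 50 and 24 genes were called (frontal cortex, cerebellum, Ctrl tissues, interaction), 7 transcripts in frontal cortex and 11 in cerebellum. The correlation of same-numbered libraries was -0.058 to 0.075, and nothing in the labels ties a number to a mouse. In cerebellum each of the 3 pairs correlated best with its own number (0.014 to 0.075), a hint from the data only. Leaving out each library gave 6 to 9, 28 to 31, 50 to 53 and 23 to 26 genes and 8 to 11 and 28 to 34 transcripts. Of 1604 values of named genes under the alternatives, 41 missed the threshold and 3 reversed, all of Kcnab1 over protein-coding transcripts (0.13 in cerebellum, -0.38 between Ctrl tissues, 0.048 in the interaction). Depth limits genes under about 0.1 CPM.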
